A study of Mus musculus with 9 samples.

Results

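The ERK feedback genes are Dusp4, Dusp5, Dusp6, Spry1, Spry2, Spry4, Spred1, Spred2, Etv4 and Etv5. They were chosen by symbol, with earlier results of these data known, as genes whose products restrain ERK signalling or whose transcription follows it. All 10 were found among the 50813 genes counted and passed the low-count filter that left 14593 genes for testing. Their mRNA was measured by RNA-seq in the Lewis lung carcinoma line LLC, mouse cells with a luciferase reporter that were grown in vitro. WT cells and the CD47 KO clones E3 and E5 gave 3 libraries each, 9 in all. The KO clones were made by electroporating Cas9 ribonucleoprotein against Cd47, which encodes a cell surface glycoprotein, and expanding single cells, so each KO line is 1 clone, and the design text calls the WT cells clonal too. With 1 clone per line, the loss of CD47 and the history of a clone cannot be told apart in any comparison with WT, and the replicates measure the spread within a line.

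ERK, the last kinase of a MAP kinase cascade, is restrained by proteins whose genes it switches on. The DUSP genes in this group encode phosphatases that remove the activating phosphates from ERK, and Sprouty and Spred proteins act upstream, close to growth factor receptors. Etv4 and Etv5 encode ETS transcription factors of the PEA3 family, whose genes are repressed by Capicua (CIC) until ERK signalling relieves the repression. In tumour cells, mRNAs of this group are widely used as readouts of ERK output.

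The 4 promoters that held a searched motif are shown. Any link between these motifs and the levels of the genes was not tested. Sequence was read from GRCm39 at the start of the GENCODE M39 canonical transcript, 5′ to 3′ on the gene's strand, and 250 bases before and 50 bases after the start were searched on both strands in 9 members. The Spry4 promoter was not analysed here. The lines below run from 250 bases before the start to the 30th base of the transcript, with motif matches in capitals. No capitals overlap, and the pair of CArG boxes in Dusp5 stand end to end.
Etv4 (chr11:101676168-101676447, minus strand): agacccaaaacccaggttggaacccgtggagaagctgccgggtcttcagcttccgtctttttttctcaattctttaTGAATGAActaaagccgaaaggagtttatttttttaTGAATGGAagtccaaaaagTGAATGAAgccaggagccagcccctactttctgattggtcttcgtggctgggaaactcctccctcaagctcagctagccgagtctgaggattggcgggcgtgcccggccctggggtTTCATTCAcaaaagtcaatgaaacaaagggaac
Etv5 (chr16:22258454-22258733, minus strand): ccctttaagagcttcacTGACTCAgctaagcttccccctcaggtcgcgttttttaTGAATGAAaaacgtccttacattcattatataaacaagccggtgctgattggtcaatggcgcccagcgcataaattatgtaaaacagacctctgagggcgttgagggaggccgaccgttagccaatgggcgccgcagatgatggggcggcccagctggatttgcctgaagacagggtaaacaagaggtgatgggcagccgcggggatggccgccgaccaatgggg
Dusp4 (chr8:35274192-35274471, plus strand): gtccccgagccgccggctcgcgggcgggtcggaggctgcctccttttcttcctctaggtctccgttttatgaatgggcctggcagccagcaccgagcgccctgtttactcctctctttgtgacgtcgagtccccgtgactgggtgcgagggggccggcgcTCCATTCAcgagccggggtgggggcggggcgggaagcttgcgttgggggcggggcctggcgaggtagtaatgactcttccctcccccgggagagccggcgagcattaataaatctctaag
Dusp5 (chr19:53517282-53517561, plus strand): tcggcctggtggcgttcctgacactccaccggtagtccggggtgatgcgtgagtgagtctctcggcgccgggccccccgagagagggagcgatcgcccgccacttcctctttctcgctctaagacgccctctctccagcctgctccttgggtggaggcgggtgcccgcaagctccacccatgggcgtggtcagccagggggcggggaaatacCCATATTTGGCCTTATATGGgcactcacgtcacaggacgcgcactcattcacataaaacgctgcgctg

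The CIC octamer TGAATGAA occurred in Etv4, with 3 matches, and in Etv5, and it was held by 1.38% of 21446 promoters of protein-coding genes. The related octamer TGAATGGA occurred in Dusp4, on the minus strand, and in Etv4, against 1.15% of promoters. The AP-1 motif TGACTCA occurred in Etv5, against 4.69% of promoters. The CArG box, bound by serum response factor, occurred as 2 matches in Dusp5, against 1.54% of promoters. CCGGAAG and CAGGAAG, ETS core motifs, were in 10.2% and 12.2% of promoters and in 0 of the 9 members, and the CRE motif TGACGTCA was in 2.47% and in 0 members. Dusp6, Spry1, Spry2, Spred1 and Spred2 held no match in this window.

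**Figure D1:**
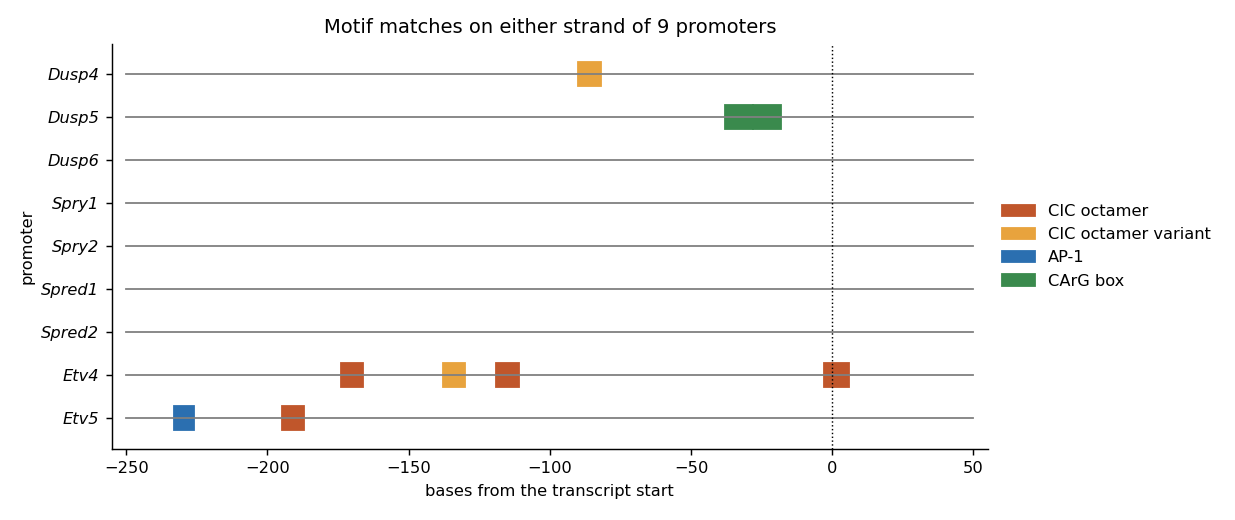
Positions of motif matches on either strand of 9 promoters, in bases from the transcript start (dotted line). Etv4 holds 3 CIC octamers and 1 variant, Etv5 holds 1 CIC octamer and an AP-1 motif, Dusp4 holds 1 variant, Dusp5 holds 2 adjacent CArG boxes drawn as 1 block, and 5 promoters hold none.

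Total counts were 44257404 to 55095219 per library, so counting error was small for every member, the fewest counts being 260 for Spry1 in a clone E5 library. Cd47 checked the labels: its level was 182 ± 3.92 CPM (counts scaled to library size by TMM; SD, n = 3) in WT, 44.6 ± 6.87 in E3 and 17.4 ± 1.66 in E5. Of the lineage markers, Vim averaged 4166 CPM in WT, 5480 in E3 and 6571 in E5, Krt8 averaged 191, 38.1 and 370 CPM and Krt18 averaged 264, 125 and 558 CPM, while the epithelial and alveolar markers Epcam, Nkx2-1 and Sftpc were absent, with 0 counts in every library and Cdh1 at most 6. Summed leukocyte markers were 2.35 to 3.45 CPM, nearly all Cd68, with at most 2 counts for each of the other 5, and summed endothelial markers were at most 0.253 CPM. Replicate 3 of clone E3 stood apart: over all tested genes its mean absolute log2 deviation from its line's median was 0.308, against 0.0436 to 0.110 in the other 8 libraries. Results of clone E3 are therefore given with and without it.

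Among the 10 feedback genes, 5 were lower in clone E3 than in WT and 5 were lower in clone E5, at an FDR under 0.05 in edgeR's quasi-likelihood test across all genes, and 0 were higher in either clone. Dusp5, Dusp6 and Spry4 were called lower in each clone. Dusp4 and Etv5 were called lower in E3, and Spry1 and Spry2 in E5, while Spred1, Spred2 and Etv4 were not called in either. These calls, and the absence of higher ones, are for all libraries. Without E3 replicate 3, Spred1 and Spred2 were called higher and Etv4 lower in E3. In E5, Dusp4 was then called higher and Spred1 lower. In bulk RNA, fewer cells expressing a gene and less RNA per cell cannot be told apart. The direct test of E5 against E3 called 6 members, 3 lower and 3 higher in E5.

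These counts stand against a background in which many genes were called. As the members were chosen with earlier results of these data known, the comparison with that background is no test. Against WT, 14.7% of tested genes were lower and 15.7% higher in E3, and 11.7% were lower and 8.96% higher in E5. Of the members, 2 in E3 and 3 in E5 also had an absolute log2 fold change above 1, a combination that 9.82% and 8.21% of genes met. The 3 libraries of a clone lay wholly to one side of the 3 WT libraries for 5 members in E3 and 8 in E5, where 45.4% and 55.4% of genes did so, so that the count in E3 was close to the background. The median log2 fold change of the members was -0.40 in E3 and -0.44 in E5, beside 0.01 and -0.00 over all tested genes. Both comparisons use the same WT libraries. Between the clones, 17.2% of genes were lower and 14.7% higher in E5, 11% were called with an absolute log2 fold change above 1 as were 4 members, and 44.6% had non-overlapping libraries as had 6 members.

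**Figure D2:**
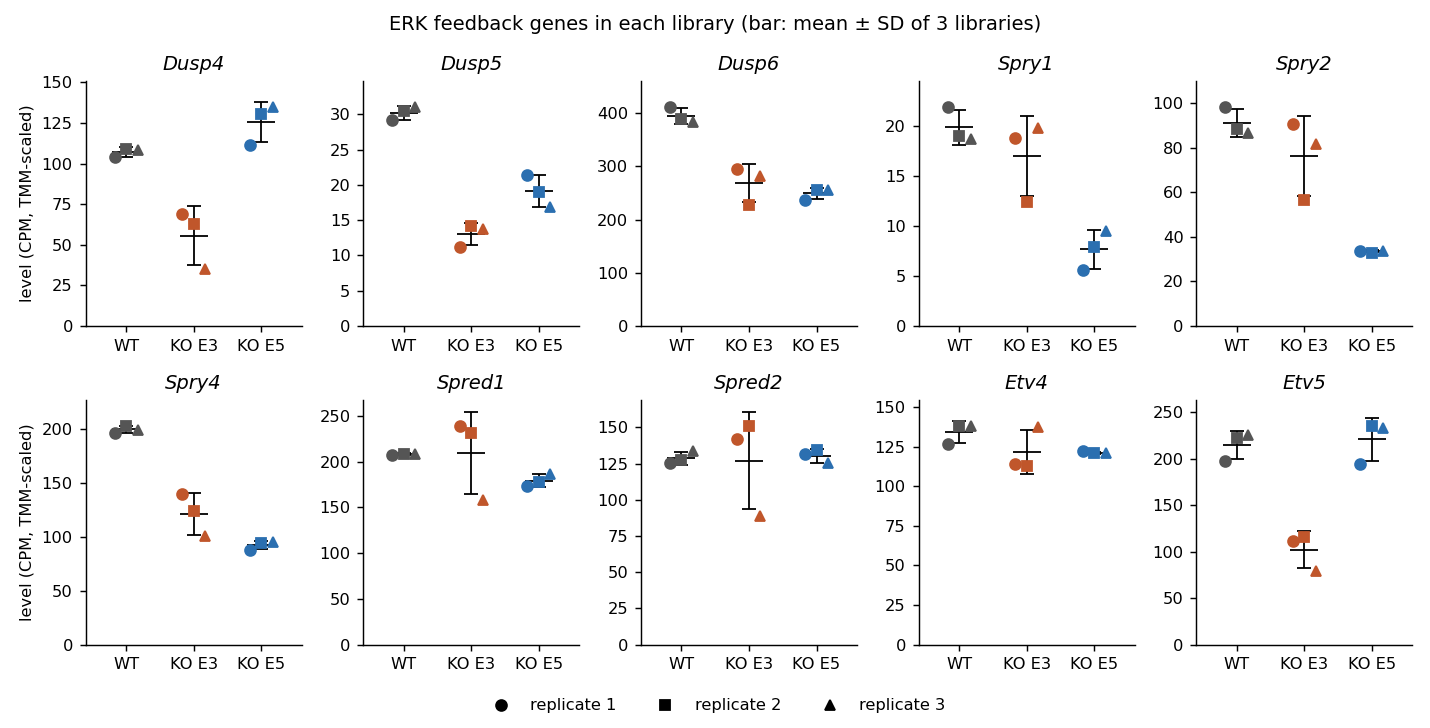
Level of each feedback gene in every library, in TMM-scaled CPM, with bars for the mean ± SD of the 3 libraries of a line and marker shapes for replicates. Dusp4 and Etv5 are lowest in E3, at 35.1 to 68.7 and 79.3 to 116 CPM, and Spry1 and Spry2 are lowest in E5, at 5.602 to 9.45 and 32.9 to 33.8 CPM.

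Dusp6, the cytoplasmic phosphatase selective for ERK, was the most abundant member and was lower in both clones. Its level (chromosome 10, 99099093 to 99103351 in GRCm39, as all positions) was 411, 389.9 and 383 CPM in WT replicates 1 to 3, 296, 228 and 281 CPM in E3, and 237, 256 and 255 CPM in E5. Every KO library lay below every WT library, and the ranges of the clones overlapped. Dusp6 fell by 0.56 on the log2 scale in E3 (SE 0.11, FDR = 0.00371) and by 0.66 in E5 (SE 0.11, FDR = 0.00188). The clones did not differ past the threshold, with a log2 difference of -0.11 and a 95% interval of -0.35 to 0.14 (FDR = 0.494). The 40 tested genes nearest to Dusp6 had a median log2 fold change of -0.26 in E3, and its value less that median was -0.29. The same subtraction changed the sign of no call against WT.

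Dusp5, a nuclear phosphatase of ERK, showed its lowest level in E3. For this gene, at 53517540 to 53530862 on chromosome 19, WT libraries held 29.1, 30.4 and 31.0 CPM, E3 libraries 11.2, 14.1 and 13.8 CPM, and E5 libraries 21.4, 19.0 and 16.9 CPM. The 3 lines did not overlap, with E3 lowest, E5 between and WT highest. Dusp5 fell by 56.8% in E3 (log2 fold change -1.21, SE 0.12, FDR = 8.24e-05) and by 36.8% in E5 (-0.66, SE 0.12, FDR = 0.00335), and its level in E5 was 1.46-fold that in E3 (FDR = 0.00666). The lncRNA Gm50394 overlaps it and had at most 11 counts in a library.

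Dusp4, a nuclear phosphatase that acts on ERK and other MAP kinases, was lower in E3 and not in E5. Levels of Dusp4 (chromosome 8, 35274451 to 35287048) were 104, 109 and 108 CPM in WT, 68.7, 63.1 and 35.1 CPM in E3, and 111, 131 and 135 CPM in E5. All E3 libraries lay below WT and all E5 libraries above it. Dusp4 fell by 48.1% in E3 (log2 fold change -0.95, SE 0.21, FDR = 0.00646). In E5 the log2 fold change was 0.23, with a 95% interval of -0.22 to 0.68 (FDR = 0.486), and the direct comparison gave a level in E5 2.26-fold that in E3 (FDR = 0.00185). Replicate 3 gave the lowest of the E3 values, and without it the log2 fold change of E3 was -0.70 (FDR = 4.33e-05), while that of E5 was 0.24 and passed the threshold (FDR = 0.0209).

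Of the Sprouty genes, whose products inhibit signalling from receptor tyrosine kinases to ERK, Spry2 showed the widest span between lines of any member. The gene lies on chromosome 14 at 106129381 to 106134253. WT libraries held 98.1, 88.2 and 86.4 CPM, E3 libraries 90.7, 56.4 and 81.8 CPM, and E5 libraries 33.6, 32.9 and 33.8 CPM. The E5 libraries lay far below all others, and the E3 range overlapped WT. Spry2 fell by 63.2% in E5 (log2 fold change -1.44, SE 0.16, FDR = 0.00011). In E3 the log2 fold change was -0.25, with a 95% interval of -0.59 to 0.09 (FDR = 0.241), and the difference of E5 from E3 was -1.19 on the log2 scale (SE 0.15, FDR = 0.00028).

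Spry1, the least abundant member per length in WT and E5, followed the same order. Levels of Spry1 (chromosome 3, 37694096 to 37698747) were 21.8, 19.0 and 18.7 CPM in WT, 18.8, 12.4 and 19.7 CPM in E3, and 5.602, 7.92 and 9.45 CPM in E5. As for Spry2, replicate 2 was the low library of E3, and all E5 libraries lay below all others. Spry1 fell by 61.3% in E5 (log2 fold change -1.37, SE 0.21, FDR = 0.00124), while in E3 its log2 fold change was -0.23, with a 95% interval of -0.68 to 0.23 (FDR = 0.447). The difference of E5 from E3 was -1.14 on the log2 scale (SE 0.21, FDR = 0.00249). Gm42922 overlaps the start of Spry1 and had at most 20 counts in a library.

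Spry4 was lower in both clones. It lies on chromosome 18 at 38719300 to 38734468. WT libraries held 196, 203 and 199 CPM, E3 libraries 139, 123 and 100.2 CPM, and E5 libraries 88.0, 93.6 and 94.6 CPM. The 3 lines did not overlap, with E5 lowest and E3 between. Spry4 fell by 39.3% in E3 (log2 fold change -0.72, SE 0.12, FDR = 0.00131) and by 53.8% in E5 (-1.11, SE 0.12, FDR = 0.000102). The difference of E5 from E3 was -0.39 (SE 0.12, FDR = 0.0274), a call that was lost without WT replicate 2 or 3, E3 replicate 1 or 2, or any 1 library of E5, at FDRs of 0.0504 to 0.0932, and kept without E3 replicate 3 at a log2 difference of -0.50 (FDR = 9.61e-05).

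**Figure D3:**
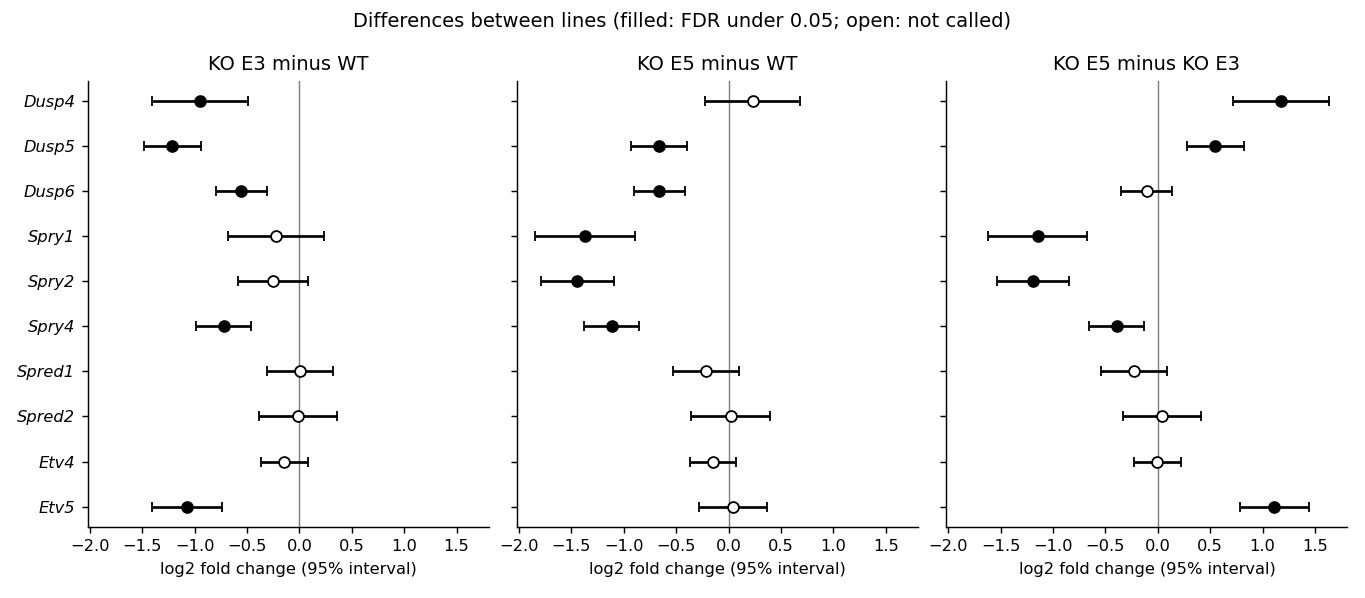
Log2 fold change of each feedback gene with its 95% interval in the 3 comparisons, with filled points for an FDR under 0.05 and open points for genes not called. Against WT every filled point lies below 0, and between the clones Dusp4, Dusp5 and Etv5 lie above 0 and Spry1, Spry2 and Spry4 below it.

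Spred1 and Spred2, which encode proteins that bring neurofibromin to RAS, were not called in any comparison. Spred1 lies on chromosome 2 at 116951855 to 117012760 and Spred2 on chromosome 11 at 19874375 to 19974026. Spred1 stood at 207, 209 and 209 CPM in WT, 239, 231 and 158 CPM in E3, and 173, 178 and 186 CPM in E5. Spred2 stood at 125, 127 and 134 CPM in WT, 142, 151 and 88.5 CPM in E3, and 131, 134 and 125 CPM in E5. For each gene E3 replicate 3 lay below all WT libraries and the other E3 libraries above them. The log2 fold change of Spred1 was 0.01 in E3 (95% interval -0.31 to 0.32, FDR = 0.974) and -0.22 in E5 (-0.53 to 0.10, FDR = 0.325), and that of Spred2 was -0.02 (-0.39 to 0.35, FDR = 0.952) and 0.02 (-0.35 to 0.39, FDR = 0.956).

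Etv5 was among the members that fell most in E3. Its position is chromosome 16 at 22200059 to 22258469. WT libraries held 198, 222 and 225 CPM, E3 libraries 112, 116 and 79.3 CPM, and E5 libraries 194, 236 and 233 CPM. All E3 libraries lay below all others, and the E5 range overlapped WT. Etv5 fell by 52.4% in E3 (log2 fold change -1.07, SE 0.15, FDR = 0.000516), with -0.92 without replicate 3 (FDR = 1.36e-05). In E5 its log2 fold change was 0.04, with a 95% interval of -0.29 to 0.37 (FDR = 0.888), and its level in E5 was 2.16-fold that in E3 (FDR = 0.000342).

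Etv4, the paralog of Etv5, was not called in any comparison. Levels of Etv4 (chromosome 11, 101660568 to 101676197) were 127, 138 and 138 CPM in WT, 114, 113 and 137 CPM in E3, and 122, 121 and 121 CPM in E5. The E5 libraries lay below WT by a small margin and E3 replicate 3 lay within the WT range. The log2 fold change was -0.14 in E3 (95% interval -0.37 to 0.08, FDR = 0.309) and -0.15 in E5 (-0.37 to 0.07, FDR = 0.34), and the difference between the clones was -0.00 (-0.23 to 0.22, FDR = 0.978). The CIC octamer was present in the promoters of Etv5, lower in E3, and of Etv4, not called with all libraries. Without E3 replicate 3, Etv4 was called lower in E3 (log2 fold change -0.24, FDR = 0.00751). Any link between the octamer and the levels was not tested.

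Without E3 replicate 3 the number of members called in E3 was 8 instead of 5, with 6 lower and 2 higher, while 6423 genes in all were called instead of 4445. The added calls were Etv4 (log2 fold change -0.24, FDR = 0.00751), Spred1 (0.17, FDR = 0.0376) and Spred2 (0.18, FDR = 0.0379). In E5, tested in the same fit, 7 members were called instead of 5, the added ones being Dusp4 and Spred1 (-0.21, FDR = 0.00885), while 6246 genes in all were called instead of 3012. The 5 members called in E3 and the 5 called in E5 with all libraries kept their direction and their call. In E3 the log2 fold changes were then -1.26 for Dusp5 (FDR = 8.94e-06), -0.59 for Dusp6 (FDR = 0.000445) and -0.60 for Spry4 (FDR = 3.23e-05), and those of Spry1 and Spry2, not called, were -0.35 (FDR = 0.166) and -0.31 (FDR = 0.106). Between the clones 7 members were then called instead of 6, as Spred1 was lower in E5 with a log2 difference of -0.39 (FDR = 0.00033). The differences of the other 6 were 0.94 for Dusp4, 0.60 for Dusp5, 0.97 for Etv5, -1.01 for Spry1, -1.13 for Spry2 and -0.50 for Spry4. All genes called between the clones then numbered 6555, where 2514 were lower and 2147 higher in E5 with all libraries. In E3 replicate 3, 6 members deviated from their line's median by more than 0.25 on the log2 scale, 5 of them below it, with Dusp4 at -0.85, Spred2 at -0.68, Spred1 at -0.55, Etv5 at -0.49 and Spry4 at -0.30, and Etv4 at 0.27. In E3 replicate 2 the low genes were others, with Spry1 at -0.60, Spry2 at -0.54 and Dusp6 at -0.30.

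**Figure D4:**
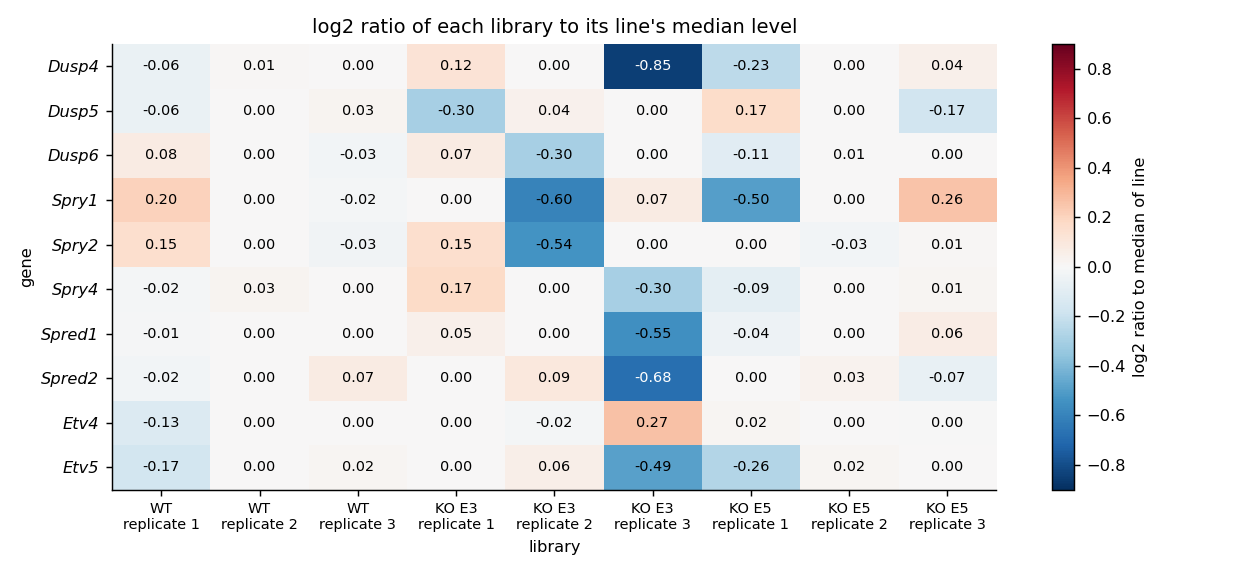
Log2 ratio of each library's level to the median of its line, for the 10 feedback genes (rows) and 9 libraries (columns), with the value in each cell. Replicate 3 of E3 reaches -0.85 at Dusp4, and replicate 2 of E3 is low at Spry1, Spry2 and Dusp6.

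Divided by the length of the canonical transcript in kilobases, levels in WT ran from 139 ± 5.25 CPM per kb for Dusp6 to 7.34 ± 0.65 for Spry1. Below Dusp6 came Etv4 (55.9 ± 2.78 CPM per kb) and Etv5 (53.9 ± 3.77), which did not differ beyond their spread, then Spry4 (41.9 ± 0.67), Dusp4 (39.0 ± 1.03) and Spred1 (32.9 ± 0.11). Spry2 (28.04 ± 1.94) and Spred2 (26.8 ± 0.93) did not differ beyond their spread, and Dusp5 followed at 12.2 ± 0.38. In E3, Dusp6 at 94.8 ± 12.5 and Etv4 at 50.6 ± 5.76 CPM per kb stayed at the top, and Spred2, Etv5, Spry4, Spry2 and Dusp4 lay between 26.5 and 20.2 with SDs of 4.13 to 7.03, so that their order was not resolved. Dusp5 was lowest in E3 at 5.25 ± 0.64 CPM per kb, but its libraries overlapped those of Spry1, at 6.28 ± 1.48, and that order was not resolved. In E5, Etv5 at 55.3 ± 5.82 and Etv4 at 50.5 ± 0.31 followed Dusp6 at 88.1 ± 3.79, and Dusp4 at 45.7 ± 4.55 lay above Spry4 at 19.4 ± 0.75 and Spry2 at 10.3 ± 0.14 CPM per kb.

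The likeness of any pair of genes was measured as the Euclidean distance between their log2 CPM values over the 9 libraries after each gene's mean was subtracted, which describes how alike the profiles were and is no test. The nearest pairs of members were Dusp4 and Etv5 (distance 0.43), Spred1 and Spred2 (0.43), Spry1 and Spry2 (0.56) and Dusp6 and Spry4 (0.72), and the farthest pair was Dusp4 and Spry1 (3.19). As the values were not scaled, genes that vary little lie near each other. The line means of Spred1 and Spred2 spanned only 0.22 and 0.07 on the log2 scale. Both were low in E3 replicate 3, at -0.55 and -0.68 from their line's median. Paralogs were not always near, with 1.63 between Etv4 and Etv5 and 1.52 between Dusp4 and Dusp5. Among 10418 named genes, those nearest to Dusp4 were Iars1 (0.20), Sos2 (0.22) and Slc23a2 (0.34), where the median gene lay at 1.83. Those nearest to Etv5 were Xpot (0.21), Mtrr (0.23) and Ccnd2 (0.25), to Spry4 Btbd3 (0.17), Adamts1 (0.26) and Nabp1 (0.42), and to Dusp5 Trmt61a (0.39), Slc22a15 (0.42) and Ltv1 (0.42). The genes nearest to Spry1 were Plin2 (0.37), Prss23 (0.46) and Arsg (0.50), and to Spry2 Fuca2 (0.51), Trmt10b (0.52) and Hhat (0.55).

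Other genes of the pathway, and other feedback genes of signalling, were counted from lists of symbols. Of 9 other MAP kinase phosphatases, 2 were lower and 3 higher in E3, 3 lower and 2 higher in E5, with medians of 0.05 and -0.18. Lower calls were 22.2% of the list in E3 and 33.3% in E5, beside 14.7% and 11.7% of all tested genes. Higher calls were 33.3% and 22.2%, beside 15.7% and 8.96%. Dusp9, which encodes a cytoplasmic ERK phosphatase, stood at 167 ± 10.9 CPM in WT, 75.2 ± 17.9 in E3 and 335 ± 14.1 in E5; its log2 fold change was -1.16 in E3 (FDR = 0.000373) and 1.00 in E5 (FDR = 0.000982). Like Dusp4 it was lower in E3, but it passed the test in the opposite direction in E5. Dusp2 was lower in both clones (-0.99 and -0.90), Dusp14 was higher in both (0.52 and 0.57), and Dusp1 was higher in E3 (0.56) and lower in E5 (-0.66), although Dusp1 in E3 spanned 6.06 to 10.2 CPM against 5.78 to 6.12 in WT. The number called in E3 was 2 or 3 without any 1 WT library, E3 replicate 1 or E5 replicate 2. That in E5 was 3 without any 1 WT library or E5 replicate 1 or 2. All genes called with 1 library left out ranged from 2875 to 6423 in E3 and from 1767 to 6246 in E5. Whether these phosphatases changed more than all genes was not tested.

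Of 9 further feedback genes tested from a list of 10, 1 was lower and 2 were higher in E3, and 4 were lower in E5, with medians of -0.17 and 0.03. Lower calls were 11.1% of the list in E3 and 44.4% in E5, beside 14.7% and 11.7% of all tested genes. Higher calls were 22.2% and 0%, beside 15.7% and 8.96%, so that the counts in E3 were near the background. Errfi1, an inhibitor of the EGF receptor, was 140 ± 0.70 CPM in WT, 71.6 ± 8.40 in E3 and 74.7 ± 4.76 in E5, and fell by 0.96 and 0.90 on the log2 scale (FDR = 0.000134 and 0.000187). Lrig1, which promotes receptor degradation, fell by 0.61 in E5 (FDR = 0.00324) and had a log2 fold change of -0.26 in E3 (FDR = 0.107). Spred3, the third Spred gene, fell by 0.53 in E5 (FDR = 0.0134) and stood at -0.17 in E3 (FDR = 0.34), where Spred1 and Spred2 were not called in either clone. Cish had 5 to 15 counts per WT library and 0 in every E5 library, which makes it at least 3.67-fold lower in E5 by a floor of 3 counts per library. Whether Cish follows ERK in these cells was not tested. Without E3 replicate 3, 4 genes of the list were called in E3 instead of 3 and 5 in E5 instead of 4. Over all genes, 6423 in E3 and 6246 in E5 were then called. With Cish at that bound the median of the list was also 0.03.

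Of 19 other ERK output genes tested from a list of 20, 12 were lower and 1 was higher in E3, and 3 were lower and 3 higher in E5. The 19 include Cic, which encodes the repressor of Etv4 and Etv5 and was not called in E3 (FDR = 0.367) or E5 (FDR = 0.783). Lower calls were 63.2% of the list in E3 and 15.8% in E5, beside 14.7% and 11.7% of all tested genes. Higher calls were 5.26% and 15.8%, beside 15.7% and 8.96%, and the lower count in E5 was near the background. Medians of the list were -0.66 in E3 and -0.16 in E5, and the first was -0.65 without Epha4, which was at or under 3 counts in every E3 and WT library. Epha4 is nevertheless 1 of the 12 lower calls in E3 (FDR = 0.0295), a call that rests on libraries at the floor. Between the clones, 9 genes of the list were higher and 0 lower in E5. These were 47.4% and 0%, beside 14.7% and 17.2% of all tested genes. Egr1, an immediate early transcription factor, was 24.6 ± 1.49 CPM in WT, 0.951 ± 0.598 in E3 and 1.40 ± 0.389 in E5, and Areg, an EGF receptor ligand, was 51.9 ± 4.30, 11.9 ± 1.79 and 20.3 ± 0.598 CPM. Fos had 10 to 22 counts per WT library, 5 to 11 in E3 and 2 to 4 in E5, and was called lower in E5 (FDR = 0.00897) and not in E3 (FDR = 0.137). Epha4 had 39 to 53 counts per E5 library, at least 15.5-fold above WT by the floor of 3 counts per library. Without E3 replicate 3 the number called was 15 instead of 13 in E3, 12 instead of 6 in E5 and 14 instead of 9 between the clones. All genes called then numbered 6423 in E3, 6246 in E5 and 6555 between the clones.

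Of 22 genes of the cascade itself and its partners, 6 were lower in E3 and 2 in E5, 0 were higher in either, and the medians were -0.16 and -0.05. Those called lower were 27.3% of the list in E3 and 9.09% in E5, beside 14.7% and 11.7% of all tested genes, so that the count in E5 was near the background. Sos2, a RAS exchange factor and the second nearest gene to Dusp4, stood at 55.4 ± 1.52 CPM in WT, 31.3 ± 9.65 in E3 and 69.5 ± 3.43 in E5, and fell by 0.82 in E3 (FDR = 0.00903). Map2k1, which encodes MEK, fell by 0.38 in E3 (FDR = 0.011) and by 0.51 in E5 (FDR = 0.00331). Without E3 replicate 3 the numbers called were 12 in E3 and 10 in E5, where 6423 and 6246 genes in all were called. The number in E3 was 3 without WT replicate 1. The number in E5 was 1 without WT replicate 1 or 3 or E5 replicate 1 or 2. With 1 library left out, all genes called also varied, from 2875 to 6423 in E3 and from 1767 to 6246 in E5. Whether the list changed more than all genes was not tested.

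**Figure D5:**
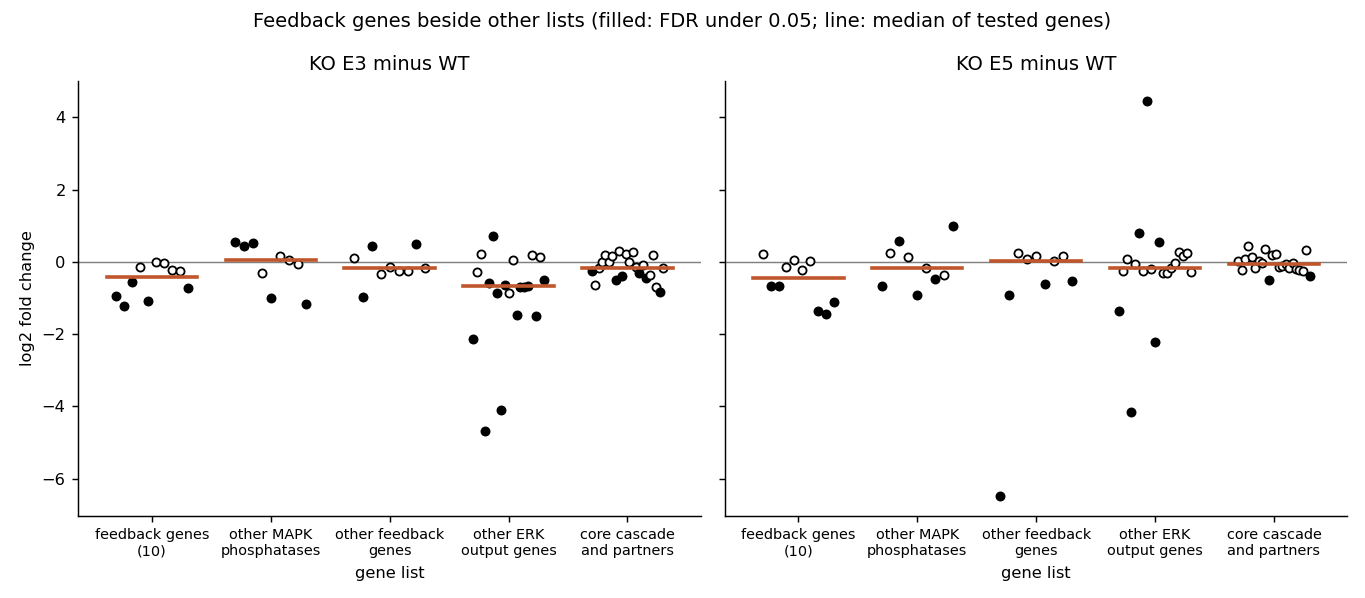
Log2 fold change of each tested gene in 5 lists, for E3 and E5 against WT, with filled points for an FDR under 0.05 and a line at the median of each list. The other ERK output genes have medians of -0.66 in E3 and -0.16 in E5. The fitted values of Cish in E5 and Epha4 in both panels rest on libraries at or near 0 counts and are no measure of size.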

How the data were processed

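RNA-seq was performed on LLC WT, CD47 KO E3 and CD47 KO E5 cells, with 3 biological replicates per line. Per the labels and the study's methods, poly(A) RNA went into directional paired-end libraries, and the authors used FastQC, Trimmomatic and STAR, with GRCm39 as the reference. They deposited raw read counts per gene, neither normalized nor pooled. The annotation release, the counting tool and whether it used strand are not given in the sources used here, so genes that overlap another are uncertain.

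In R (4.3.3), the lines were compared with edgeR (4.0.16), by its quasi-likelihood test with TMM scaling, after filterByExpr (minimum count 10, minimum total 15) and with the 3 lines in 1 fit. FDR denotes Benjamini-Hochberg adjustment over 14593 genes, and calls had an FDR under 0.05. The coefficient of variation between replicates was 14.8%. Dividing the size of a log2 fold change by the root of its F statistic gave its standard error. The procedure was checked on simulated counts with far fewer changed genes than were called here and no library that stood apart. That check does not cover the conditions of these data. The authors' methods name DESeq2, which served here as an alternative (1.42.0) beside no filter, upper-quartile scaling, DESeq2 size factors within edgeR, a minimum of 10 counts in each library, 2 groups only, the replicate number as a block, subtraction of the median of 40 neighbouring genes and each library left out in turn.

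The 10 members and the other lists were chosen with earlier results of these data known. Within a list, at most 4 genes were named, those with the largest absolute log2 fold change in either clone among genes called. Not every gene that this covers is reported here. For members whose line means spanned more than 1 on the log2 scale, the 3 nearest genes were named, leaving out predicted and Riken names and genes whose average log2 CPM was 1 or less. Lengths and promoters came from GENCODE M39 canonical transcripts. Total counts of 44257404 to 55095219 per library limit precision by counting only; lines whose libraries all had 3 counts or fewer were taken to be at the detection floor.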

Additional observations from a re-analysis of the deposited data

Results flagged for a closer look

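For 6 of the 10 feedback genes the clones differed from each other at an FDR under 0.05 in the direct test of E5 against E3, in which 17.2% of all tested genes were lower and 14.7% higher in E5. Dusp4 was higher in E5 by 1.18 on the log2 scale (SE 0.21, FDR = 0.00185), Etv5 by 1.11 (SE 0.15, FDR = 0.000342) and Dusp5 by 0.55 (SE 0.12, FDR = 0.00666). Spry1 had a log2 difference of -1.14 (SE 0.21, FDR = 0.00249), Spry2 of -1.19 (SE 0.15, FDR = 0.00028) and Spry4 of -0.39 (SE 0.12, FDR = 0.0274). The Spry4 call was lost in 9 of 16 alternatives, with an FDR of 0.0585 with the replicate block and 0.0848 with 2 groups only, and the other 5 calls were kept in all 16. For all 6 genes the 3 libraries of E5 lay wholly to one side of the 3 libraries of E3, as did those of 44.6% of tested genes. Dusp4 was the only member whose libraries lay below WT in one clone and above WT in the other.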

How the results depend on the processing

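There were 480 values, from 30 fold changes of the members and 16 alternatives with a test. Of these, 447 kept their direction and their side of the threshold, 9 lost the call, 8 gained it with the same sign and 16 changed sign. Among the 16 sign changes was Spred2 in E3 without E3 replicate 3, which also became called (log2 fold change 0.18, FDR = 0.0379). All 9 lost calls were of Spry4 between the clones, with FDRs of 0.0848 with 2 groups only and 0.0585 with the replicate block; leaving out 1 library gave log2 differences of -0.50 to -0.28. The number of members called in E3 was 5 to 8 with 1 library left out, the 8 being without E3 replicate 3. In E5 it was 8, of which 7 were lower, with 2 groups only. All genes called in E3 numbered 2875 to 6423 with 1 library left out, the lowest without WT replicate 2. In E5 they numbered 1767 to 6246, the extremes being without WT replicate 2 and without E3 replicate 3, and 6596 with 2 groups only. The causes were not tested.

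Sign changes touched fold changes that were near 0 with all libraries. Among the changed values only Spred2 in E3 without E3 replicate 3 was called (FDR = 0.0379). Spred1 in E3 was -0.0012 with no filter and -0.0041 with the block, and -0.10 to 0.17 with 1 library left out. Spred2 in E3 was 0.048 with upper-quartile scaling and -0.16 to 0.18 with 1 library left out, and in E5 -0.0066 to 0.047. Etv5 in E5 ranged from -0.021 to 0.12. Between the clones Spred2 was -0.044 with upper-quartile scaling and -0.16 to 0.18 with 1 library left out, and Etv4 was -0.055 to 0.10.

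The replicate numbers did not pair the samples: over 9 same-numbered pairs the correlation of deviations from the line means was -0.17 to 0.05, and 1 library correlated best with its own number. With the replicate block, the members called against WT were the same in each clone, and between the clones only Spry4 lost its call. Depth did not limit any member, while Cish, Epha4 and Fos had at most 15, 53 and 22 counts in a library.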
